A study of Mus musculus with 374 samples.

Results

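The enzymes that carry glucose to lactate were followed in 5 sorted populations of mouse blood cells through 10 genes: Hk2, Gpi1, Pfkl, Aldoa, Tpi1, Gapdh, Pgk1, Pgam1, Pkm and Ldha. They were taken by symbol from a table of 19829 mouse genes, without their pseudogenes, and 9 of the 10 had a row. Aldoa, which encodes the aldolase that splits fructose bisphosphate, had no row in the table used here and was not analysed. The cells came from 1 female C57BL/6 mouse, 10 to 13 weeks old, with no treatment named in the labels. The other 4 populations were sorted from its bone marrow. They were 44 B lymphocytes (FSC-Alow, B220+), 96 erythroblasts (CD44+ Ter119+, FSC-Amid/high), 96 granulocytes (Gr1+ Mac1+) and 95 progenitor/stem cells (Kit+ Sca1+ Lin-). The 43 T lymphocytes (FSC-Alow, CD3+) came from the thymus of that animal, so that tissue and cell type cannot be told apart for them. CEL-seq2 gives each captured 3′ end a well barcode and a unique molecular identifier (UMI), and 1 UMI stands for 1 captured molecule. All wells were on 1 plate, where each population filled its own rows, so position and population cannot be told apart.

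Glycolysis turns glucose into pyruvate in the cytosol and yields ATP without oxygen, and lactate dehydrogenase then reduces pyruvate to lactate so that the pathway can go on. Blood cells differ in how far they depend on it. Neutrophilic granulocytes hold few mitochondria and live largely from glycolysis, a resting lymphocyte draws little glucose, and a red cell that has lost its mitochondria has no other source of ATP. Several steps are served by isozymes from separate genes, and the liver and red cell form of pyruvate kinase, encoded by Pklr, replaces the Pkm form late in erythroid development.

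The median well held 7959 UMIs on mouse genes in progenitor/stem cells, 3880 in granulocytes, 6113.5 in erythroblasts, 3028.5 in B lymphocytes and 4347 in T lymphocytes, and the sums over the wells ran from 135808 to 834812. The marker list of each population was highest in that population, and in the others it stood at between 0.985% and 11.8% of that level. The erythroblast list, with 4 haemoglobin genes, had the highest such share. By the profile over the genes outside the list of 10, 7 wells were closest to a population other than their label. Among them was the B lymphocyte well A8, closest to the granulocytes. Leaving these 7 wells out moved no ratio of the summed glycolytic genes, or of a glycolytic gene that passed the count minimum, by more than its counting error. Each population is 1 sample of 1 mouse, so there is no replicate check, no p-value is given, and every interval is a 95% exact interval that covers counting error only.

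Promoters were read for all 10 genes because hypoxia-inducible factors, which act on many glycolytic genes, can recognise a core of ACGTG. Both strands were searched (ACGTG and CACGT) from 250 bases before to 50 after each RefSeq start, and the E-box CACGTG, which Myc can bind, contains both and counts as 2 overlapping matches. At least 1 match stood in 8 of 14 windows, belonging to 7 of the 10 genes, against 19.6% of 32851 promoters of that length. Among the 8 are overlapping windows of Aldoa that hold the same CACGT, so this site was counted more than once. The windows of Gpi1, Pfkl and Tpi1 held neither ACGTG nor CACGT, and other forms of the core were not searched. Windows with 2 or more matches make up 8.21% of all promoters. The 4 such windows among the 10 genes are shown from RefSeq (GRCm38.p6), 5′ to 3′ on the strand of the gene, with the matches in capitals, since they carry most of the matches and include those of Pkm and Ldha, which supply most of the UMIs below.
Ldha: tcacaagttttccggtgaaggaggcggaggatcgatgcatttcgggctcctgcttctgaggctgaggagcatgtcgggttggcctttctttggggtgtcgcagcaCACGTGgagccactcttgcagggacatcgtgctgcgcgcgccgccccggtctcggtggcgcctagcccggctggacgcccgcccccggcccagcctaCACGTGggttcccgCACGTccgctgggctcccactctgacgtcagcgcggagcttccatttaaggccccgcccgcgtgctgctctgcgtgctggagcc
Pgk1: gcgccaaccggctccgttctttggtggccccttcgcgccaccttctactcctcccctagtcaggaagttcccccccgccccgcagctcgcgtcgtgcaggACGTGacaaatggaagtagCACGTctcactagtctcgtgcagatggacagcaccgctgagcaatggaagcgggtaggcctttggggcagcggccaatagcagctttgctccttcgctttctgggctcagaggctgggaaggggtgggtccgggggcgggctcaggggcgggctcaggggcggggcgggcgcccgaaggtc
Hk2: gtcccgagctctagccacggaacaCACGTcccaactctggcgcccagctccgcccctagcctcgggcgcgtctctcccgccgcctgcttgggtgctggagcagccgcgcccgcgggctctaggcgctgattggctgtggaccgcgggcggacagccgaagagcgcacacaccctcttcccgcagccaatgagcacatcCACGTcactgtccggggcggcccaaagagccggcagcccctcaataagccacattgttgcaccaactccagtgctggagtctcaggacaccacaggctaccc
Pkm: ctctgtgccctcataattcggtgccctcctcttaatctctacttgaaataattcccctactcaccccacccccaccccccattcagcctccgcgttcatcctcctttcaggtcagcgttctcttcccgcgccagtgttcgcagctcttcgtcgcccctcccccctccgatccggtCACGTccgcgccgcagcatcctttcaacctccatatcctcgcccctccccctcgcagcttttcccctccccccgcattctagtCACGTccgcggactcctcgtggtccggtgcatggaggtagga
The Ldha window lies at chr7:46845554-46845853 on the plus strand, and its 5 matches stand at 3 places, 2 of them E-boxes. The Pgk1 window is chrX:106186850-106187149 (plus strand), the Hk2 window chr6:82774405-82774704 (minus strand) and the Pkm window chr9:59656977-59657276 (plus strand). Ldha and Pkm each have a further RefSeq start whose window held no match. A match is a description of the letters, and no binding was measured in these cells.

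Summed over the 9 measured genes, glycolytic transcripts were highest in granulocytes and lowest in erythroblasts on the CPM scale. The sum was 723 UMIs in granulocytes, or 1792 CPM (UMIs per 1000000 on mouse genes, interval 1664 to 1927). It was 876 UMIs and 1049 CPM (981 to 1121) in progenitor/stem cells, 194 UMIs and 968 CPM (837 to 1114) in T lymphocytes, 52 UMIs and 383 CPM (286 to 502) in B lymphocytes, and 73 UMIs and 109 CPM (85.8 to 138) in erythroblasts. Neighbours in this order differed beyond counting error except the progenitor/stem cells and T lymphocytes, whose ratio of 1.08 (0.93 to 1.27) held 1. The granulocytes stood 1.71-fold (1.55 to 1.89) above the progenitor/stem cells, the T lymphocytes 2.53-fold (1.85 to 3.50) above the B lymphocytes, and the B lymphocytes 3.50-fold (2.40 to 5.06) above the erythroblasts. The last gap was narrower under the other scalings, at 1.51-fold per UMI of the added ERCC spike RNA, and at 2.07-fold with TMM factors and 1.37-fold with scran size factors, which both correct for the share taken by abundant genes. With scran size factors in wells of at least 1000 UMIs the gap was 1.90-fold. The place of the granulocytes rested on Pkm: without it their ratio to the progenitor/stem cells was 1.08 (0.93 to 1.26). It also rested on the scale, since per ERCC UMI, in place of the UMIs on mouse genes, the granulocytes had 0.880 times the level of the progenitor/stem cells.

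**Figure D1:**
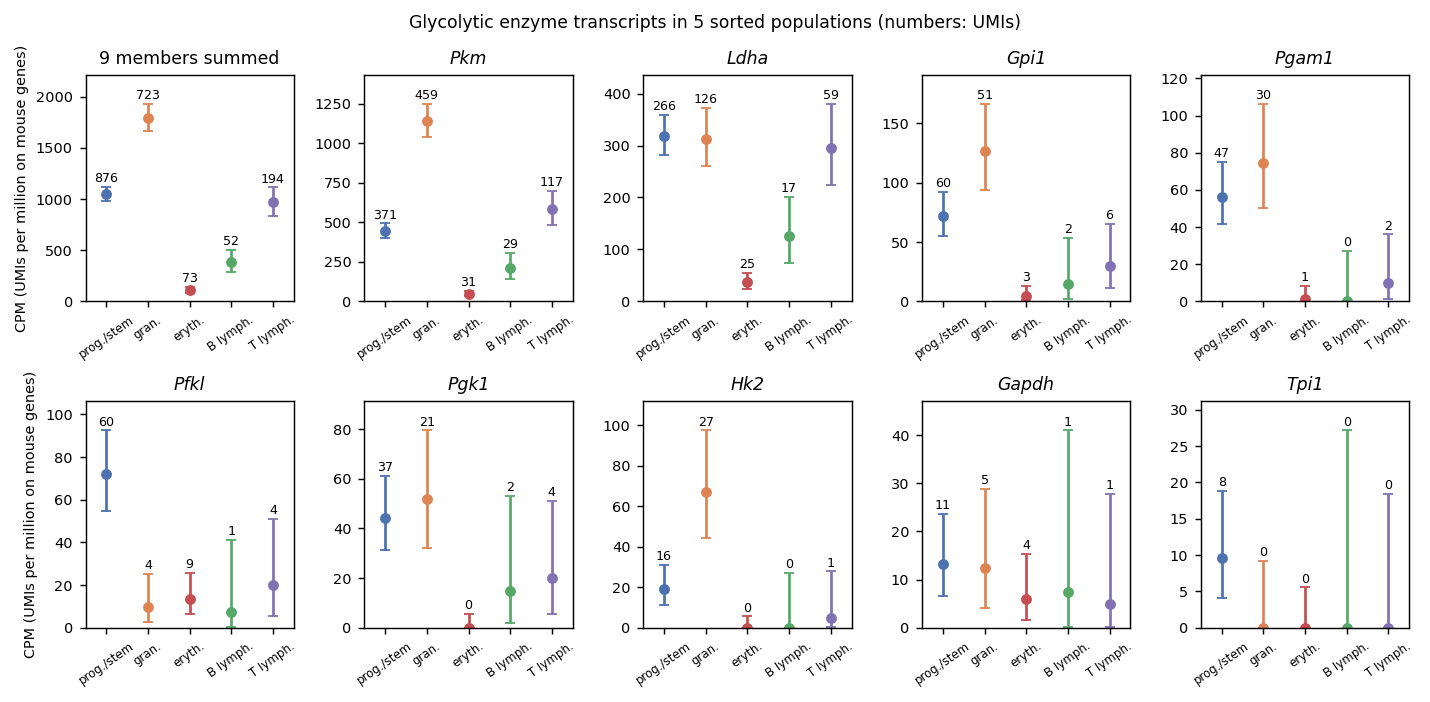
CPM (vertical axis, linear, starting at 0, own range in each panel) of the 9 measured glycolytic genes and of their sum in progenitor/stem cells (prog./stem), granulocytes (gran.), erythroblasts (eryth.), B and T lymphocytes. Points are sums over the wells of a population, bars the 95% exact Poisson interval, and numbers UMIs. Pkm and the sum are highest in granulocytes, Pfkl in progenitor/stem cells, and the erythroblasts are lowest for the sum, Pkm and Ldha.

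Pkm and Ldha, the last steps of the pathway, held 78.2% (76.3 to 80.0) of the UMIs of the 9 genes. That total leaves out Aldoa, which had no row, and the 934 UMIs on rows of Gapdh pseudogenes, beside 22 on Gapdh. It is thus a share of the counted rows and may not be the share of the pathway's transcripts. CEL-seq2 counts ends and not lengths, so UMIs were not divided by transcript length, and the shares below are shares of UMIs. Pkm, which encodes the pyruvate kinase that makes pyruvate and ATP (chr9:59656368-59679375, plus strand, GRCm38 as are the positions that follow), had 1007 UMIs. Its exons overlap those of Gm49759 on the same strand, and the 2 cannot be told apart where they overlap. Pkm reached 1138 CPM in granulocytes (459 UMIs), 584 in T lymphocytes (117), 444 in progenitor/stem cells (371), 214 in B lymphocytes (29) and 46.5 in erythroblasts (31). No neighbours in this order had an interval that held 1. The granulocytes were 1.95-fold (1.59 to 2.41) above the T lymphocytes, which were 1.31-fold (1.06 to 1.62) above the progenitor/stem cells on this scale and at 0.708 of them per ERCC UMI. Pkm made up 63.5% (59.9 to 67.0) of the UMIs of the 9 genes in granulocytes, 60.3% (53.1 to 67.2) in T lymphocytes and 42.4% (39.1 to 45.7) in progenitor/stem cells.

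Ldha, the lactate dehydrogenase subunit that favours lactate formation (chr7:46841475-46855627, plus strand), followed another order. Its level was 319 CPM in progenitor/stem cells (266 UMIs), 312 in granulocytes (126), 294 in T lymphocytes (59), 125 in B lymphocytes (17) and 37.5 in erythroblasts (25). The first 3 could not be ordered at this depth, with ratios of 1.02 (0.822 to 1.27) and 1.06 (0.773 to 1.47) between neighbours. The T lymphocytes were 2.35-fold (1.35 to 4.30) above the B lymphocytes, and these 3.34-fold (1.69 to 6.43) above the erythroblasts. Against the progenitor/stem cells, the granulocytes were thus at 2.56 (2.23 to 2.94) in Pkm, from 1.32 to 5.54 under the other scalings, and at 0.980 (0.786 to 1.22) in Ldha, which lay on either side of 1 under them.

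The steps from glucose to fructose bisphosphate were read by Hk2, Gpi1 and Pfkl, and Pfkl had another order than Hk2 and Gpi1. Hk2, the hexokinase that phosphorylates glucose (chr6:82725025-82774454, minus strand), had 27 UMIs in granulocytes (66.9 CPM), 16 in progenitor/stem cells (19.2 CPM), 1 in T lymphocytes and 0 in erythroblasts and B lymphocytes. The granulocytes were 3.49-fold (1.81 to 6.94) above the progenitor/stem cells, and 1.80-fold above them per ERCC UMI. A count of 0 allows up to 4.50 CPM in erythroblasts and 22.1 CPM in B lymphocytes, taken as 3 UMIs, so the B lymphocytes could hold as much Hk2 as the progenitor/stem cells.

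Gpi1, the isomerase that makes fructose 6-phosphate (chr7:34201330-34230336, minus strand), reached 126 CPM in granulocytes (51 UMIs) and 71.9 in progenitor/stem cells (60). It was at 29.9 CPM in T lymphocytes (6 UMIs), 14.7 in B lymphocytes (2) and 4.50 in erythroblasts (3). The granulocytes exceeded the progenitor/stem cells 1.76-fold (1.19 to 2.60), but were at 0.906 of them per ERCC UMI and at 0.884 in wells thinned to 1000 UMIs. The thinned value rests on a Gpi1 UMI in 7 of 94 granulocyte and 8 of 95 progenitor/stem cell wells. These ratios leave out the pseudogene rows of Gpi1, which held 30 UMIs in progenitor/stem cells, 18 in T lymphocytes and 6 in B lymphocytes. Whether those tags came from Gpi1 was not tested. On the Gpi1 row alone, the progenitor/stem cells exceeded the T lymphocytes 2.40-fold (1.04 to 6.80). The T lymphocytes were 6.65-fold (1.42 to 41.1) above the erythroblasts, and the B lymphocytes could not be placed against either.

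Pfkl, the liver-type phosphofructokinase at the main control point of the pathway (chr10:77986947-78010083, minus strand), was highest in progenitor/stem cells. It had 60 UMIs in progenitor/stem cells (71.9 CPM), 4 in T lymphocytes (20.0 CPM), 9 in erythroblasts (13.5 CPM), 4 in granulocytes (9.91 CPM) and 1 in B lymphocytes (7.36 CPM). The progenitor/stem cells stood above each of the others, and the other 4 could not be ordered. The ratio of granulocytes to progenitor/stem cells was 0.138 (0.0364 to 0.372).

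The 4 genes from triose phosphate to 2-phosphoglycerate had few UMIs. Pgk1, the phosphoglycerate kinase (chrX:106187100-106203699, plus strand), had 37 UMIs in progenitor/stem cells (44.3 CPM), 21 in granulocytes (52.0), 4 in T lymphocytes (20.0), 2 in B lymphocytes (14.7) and 0 in erythroblasts. Pgam1, the phosphoglycerate mutase (chr19:41911923-41918660, plus strand), had 47 UMIs in progenitor/stem cells (56.3 CPM), 30 in granulocytes (74.3), 2 in T lymphocytes, 1 in erythroblasts and 0 in B lymphocytes. Both were at ratios that held 1 between granulocytes and progenitor/stem cells, 1.17 (0.653 to 2.06) for Pgk1 and 1.32 (0.806 to 2.13) for Pgam1. Against the progenitor/stem cells, the erythroblasts were at a ratio of 0.102 for Pgk1, with their 0 set to 3 UMIs and no interval. For Pgam1 they were at 0.0266 (0.000661 to 0.156).

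Tpi1, the triose phosphate isomerase (chr6:124810586-124814296, minus strand), had 8 UMIs, all in progenitor/stem cells. At 9.58 CPM there, its absence from the other populations was not beyond counting error for the granulocytes, B lymphocytes and T lymphocytes, and in erythroblasts the ratio lay below 0.734. Gapdh, the glyceraldehyde phosphate dehydrogenase (chr6:125161715-125166467, minus strand), had 11 UMIs in progenitor/stem cells, 5 in granulocytes, 4 in erythroblasts and 1 in each lymphocyte population. Its 22 UMIs did not order any pair of neighbouring populations.

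The low count of Gapdh stands beside its pseudogenes. Of 351 windows of 50 bases in the last 400 bases of its transcript, where a 3′ tag falls, 87.7% were also found in transcripts of other annotated genes. Such sharing above 50% was met in 8.59% of 12229 protein-coding genes with a row, and the other 8 measured genes had 0% to 7.98%. The annotation lists 213 pseudogenes that share a 50-base window with Gapdh transcripts. The 106 of them with a row held 934 UMIs, 485 in progenitor/stem cells, 249 in granulocytes, 127 in erythroblasts, 19 in B lymphocytes and 54 in T lymphocytes. These rows thus held more UMIs than Gapdh in every population. In CPM they were at 581 (530 to 635), 617 (543 to 699), 190 (159 to 227), 140 (84.2 to 218) and 269 (202 to 351) in that order. Whether their tags came from Gapdh was not tested.

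**Figure D2:**
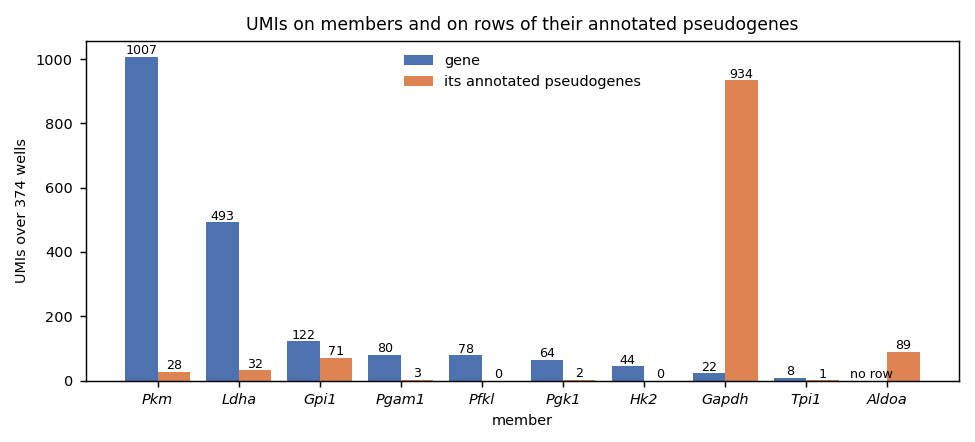
UMIs over 374 wells (vertical axis, linear) on each of the 10 genes and on the rows of annotated pseudogenes that share a 50-base window with its transcripts. The pseudogenes of Gapdh hold 934 UMIs against 22 for Gapdh, those of Aldoa 89 with no row for Aldoa, and those of Pkm 28 against 1007.

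The pseudogenes of Aldoa held 89 UMIs, of which 53 were in progenitor/stem cells, 29 in granulocytes, 1 in erythroblasts and 3 in each lymphocyte population. Those of Gpi1 held 71 against 122 on the gene. By population these were 30 in progenitor/stem cells, 14 in granulocytes, 3 in erythroblasts, 6 in B lymphocytes and 18 in T lymphocytes. In both lymphocyte populations they held more UMIs than Gpi1. The pseudogene rows that share a window with Ldha held 32 against 493 on Ldha. They include Rpl28-ps2 and Olfr1372-ps1, which are named after other genes, so the 32 may not all belong to pseudogenes of Ldha. With all pseudogene rows added to the 9 genes, the erythroblasts were at 309 CPM (268 to 354) and the B lymphocytes at 604 (480 to 749), and the order of the 5 populations was as without them. The ratio of granulocytes to progenitor/stem cells became 1.43, and that of erythroblasts to progenitor/stem cells 0.174.

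The erythroblasts were then set against the progenitor/stem cells, from which the blood lineages descend. The sum of the 9 genes was at a ratio of 0.104 (0.0810 to 0.133), and at 0.104 (0.0741 to 0.143) without Pkm. Of 4792 genes with at least 50 UMIs in both populations together, 14.8% were at least 2-fold higher in erythroblasts and 40.9% at least 2-fold lower, and the median log2 ratio was -0.73. With TMM factors these shares were 27.2% and 23.6%. Of the glycolytic genes, 4 passed this minimum and all 4 were at least 2-fold lower, with TMM factors too: Gpi1 at a ratio of 0.0626 (0.0126 to 0.192), Pfkl at 0.188 (0.0819 to 0.381), Pkm at 0.105 (0.0701 to 0.151) and Ldha at 0.118 (0.0748 to 0.178). A gene that is low in one of the populations passes only by its level in the other, so the 4 are a description of the genes that passed. The median log2 ratio of the 4 was -3.17. Haemoglobin took 23.5% of the erythroblast UMIs, which lowers the share of every other gene. With scalings that correct for such shares the sum stayed below the progenitor/stem cells, at a ratio of 0.190 with TMM factors and 0.347 with scran size factors. The latter was 0.256 in wells of at least 1000 UMIs. Relative to the median of all genes, the sum stood at -2.53 on the log2 scale, and TMM factors, which shift all genes alike, leave that value as it is. Granulocyte markers stood in the erythroblast wells at 1.14% of their granulocyte level and Pkm at 4.09% of its granulocyte level. The part of RNA from other wells in the 31 Pkm UMIs was not tested.

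The granulocytes against the progenitor/stem cells gave 6 glycolytic genes that passed the minimum. Pkm was at least 2-fold higher and Pfkl at least 2-fold lower, while Gpi1, Pgk1, Pgam1 and Ldha lay between. Of 4440 genes, 13.7% were at least 2-fold higher in granulocytes and 42.7% at least 2-fold lower, with a median log2 ratio of -0.76 against 0.32 for the 6. With TMM factors Gpi1, Pgk1, Pgam1 and Pkm were at least 2-fold higher and Pfkl lower, against 24.6% of all genes higher and 23.6% lower. Scaled to ERCC, Gpi1, Pgk1 and Pgam1 were instead below the progenitor/stem cells, at ratios of 0.906, 0.605 and 0.680. Pkm stayed above them at 1.32. Hk2, with 43 UMIs in both populations, was under the minimum, and Pfkl passed it only by its 60 UMIs in progenitor/stem cells.

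For the lymphocytes, 4 genes passed against the progenitor/stem cells in either population. Pfkl and Gpi1 passed only by their 60 UMIs each in progenitor/stem cells. In the B lymphocyte comparison Pkm and Ldha also passed by their progenitor/stem cell UMIs alone. The counts of lower genes are thus a description of the genes that passed. In the B lymphocytes all 4 were at least 2-fold lower: Pfkl at 0.102 (0.00255 to 0.593), Gpi1 at 0.205 (0.0243 to 0.773), Ldha at 0.393 (0.225 to 0.641) and Pkm at 0.480 (0.317 to 0.702). Pkm was no longer past 2-fold with TMM factors (0.517) or scran size factors in wells of at least 1000 UMIs (0.657), and Ldha not with the latter (0.519). The background was 27.9% of 3793 genes lower and 6.56% higher. In the T lymphocytes Pfkl, at 0.278 (0.0733 to 0.749), and Gpi1, at 0.417 (0.147 to 0.961), were at least 2-fold lower, against 17.8% of 4060 genes lower and 8.35% higher. Pkm and Ldha were not past 2-fold there. The Gpi1 ratios of both lymphocyte populations leave out its pseudogene rows, which held more UMIs in them than Gpi1 did. Between the lymphocytes, Pkm was 2.73-fold (1.81 to 4.26) and Ldha 2.35-fold (1.35 to 4.30) higher in T lymphocytes than in B lymphocytes. They were the 2 genes that passed the minimum, each by its T lymphocyte UMIs alone. Of 1103 genes, 18.2% were at least 2-fold higher and 9.34% lower.

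The isozymes that share a step with these genes differed in their balance between some of the populations, for hexokinase, phosphofructokinase and pyruvate kinase. Hexokinase was mostly Hk1, the widely expressed form, in progenitor/stem cells, with 60 UMIs beside 16 of Hk2 and 18 of Hk3. In the granulocytes it was mostly Hk3, with 56 UMIs beside 27 of Hk2 and 7 of Hk1, and Hk1 made up 7.78% (3.18 to 15.4) there against 63.8% (53.3 to 73.5) in progenitor/stem cells. All 45 hexokinase UMIs of the erythroblasts were Hk1, at 67.5 CPM, a ratio of 0.939 (0.623 to 1.41) to the progenitor/stem cells. With TMM factors that ratio was 1.71. The sum of the 9 genes was at 0.104 and 0.190 on the same scales. In the B and T lymphocytes, with 2 and 5 hexokinase UMIs, no balance could be read.

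Phosphofructokinase had its muscle-type form Pfkm beside Pfkl. Pfkm made up 73.5% (55.6 to 87.1) of 34 UMIs in erythroblasts and 31.0% (21.5 to 41.9) of 87 in progenitor/stem cells. In the granulocytes the enzyme had 5 UMIs in all, 4 of Pfkl and 1 of Pfkm. The platelet-type Pfkp had no row in the table used here. Exons of other genes overlap Pfkm (Senp1, Gm26513), Hk1 (Hk1os), Hk3 (Unc5a), Gpi1 (Gm26762), Tpi1 (Spsb2) and Gapdh (Iffo1), and how strand was used in counting is not given in the sources used here.

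UMIs on Pklr, the erythroid form of pyruvate kinase, were found in erythroblasts alone. It had 25 UMIs there, 44.6% (31.3 to 58.5) of the pyruvate kinase UMIs, and 0 UMIs among 371 in progenitor/stem cells, 459 in granulocytes, 29 in B lymphocytes and 117 in T lymphocytes. The erythroblast level was 10.4-fold that of the progenitor/stem cells with the 0 set to 3 UMIs, which leaves out the counting error of the 25. No 3′ window of Pklr was its own, since 100% of the 351 were also found in other transcripts when both strands were searched. Its exons overlap those of Hcn3 on the opposite strand, which had 3 UMIs in erythroblasts, 3 in progenitor/stem cells and 1 in granulocytes. How the counting divided the tags of the 2 genes was not tested. Bpgm, the mutase that makes the 2,3-bisphosphoglycerate which lowers the oxygen affinity of haemoglobin, had 52 UMIs in erythroblasts (78.0 CPM) and 26 in progenitor/stem cells (31.1 CPM), a ratio of 2.50 (1.54 to 4.18). It had 1 UMI in granulocytes, 3 in B lymphocytes and 8 in T lymphocytes.

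Lactate dehydrogenase was mostly Ldha in each population. Ldhb, the subunit that favours the use of lactate, made up 18.7% (14.6 to 23.3) of its UMIs in progenitor/stem cells, 13.2% (6.23 to 23.6) in T lymphocytes and 4.55% (1.69 to 9.63) in granulocytes. Its share in erythroblasts rested on 2 UMIs and in B lymphocytes on 1. Aldoc was the aldolase with the most UMIs, with 11 in progenitor/stem cells, 3 in granulocytes and 1 in erythroblasts, and the balance against Aldoa could not be formed.

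**Figure D3:**
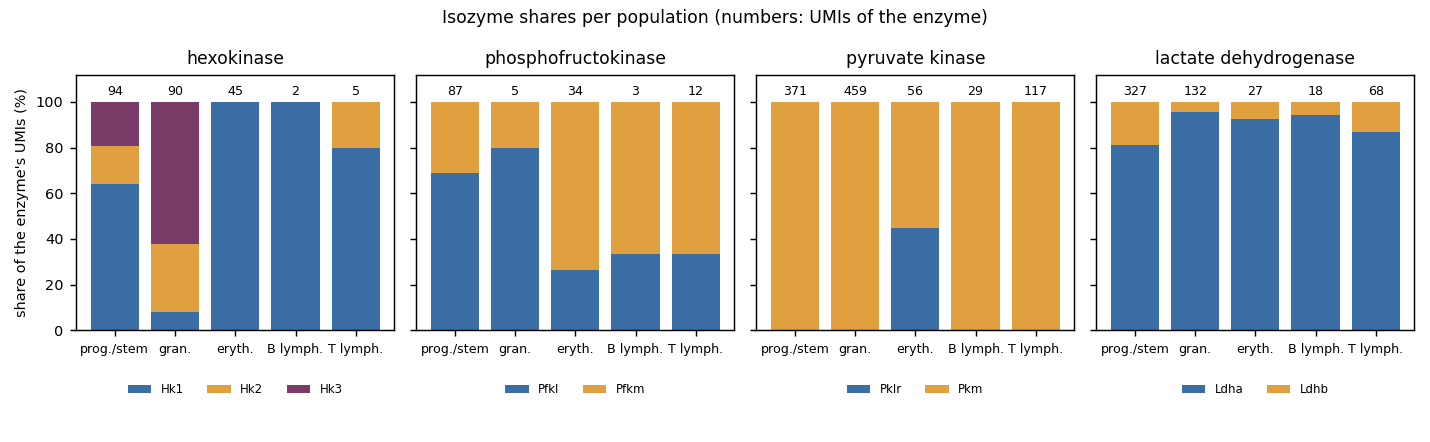
Share (%, vertical axis, linear from 0) of each enzyme's UMIs that belonged to each isozyme gene in the 5 populations (prog./stem, gran. and eryth. are the progenitor/stem cells, granulocytes and erythroblasts), with the enzyme's UMIs above each stacked bar. Hk3 is the main hexokinase in granulocytes and Hk1 in erythroblasts, and Pklr stands at 44.6% in erythroblasts and 0% elsewhere.

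Enolase, which is not among the 10 genes, was measured by the same tags. Eno1 and its near copy Eno1b had together 582 CPM (510 to 662) in granulocytes, 399 (317 to 497) in T lymphocytes, 211 (181 to 244) in progenitor/stem cells, 155 (95.7 to 236) in B lymphocytes and 36.0 (23.1 to 53.6) in erythroblasts. Reads of the 2 genes are hard to divide, since 83.8% of the 3′ windows of Eno1 were shared with other transcripts and 77.2% of those of Eno1b. On the CPM scale the order was that of Pkm, with the T lymphocytes above the progenitor/stem cells by a ratio of 1.89 (1.44 to 2.48). Per ERCC UMI that ratio was 1.02, beside 0.708 for Pkm. Of the 18 other isozyme genes, 14 had a row and 7 had 50 UMIs or more. Against the progenitor/stem cells, 1 of 6 that passed the minimum was at least 2-fold higher in erythroblasts (Bpgm, and Pfkm too with TMM factors) and 3 lower (Eno1, Eno1b and Ldhb). Of all genes, 14.8% were higher there and 40.9% lower. In the granulocytes 3 of 5 were higher (Hk3, Eno1 and Eno1b) and 2 lower (Hk1 and Ldhb), beside 13.7% and 42.7% of all genes.

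Transporters of hexose and lactate ran opposite to the enzymes in erythroblasts. The list had 7 of 8 genes with a row, and its sum was 1426 CPM in erythroblasts against 216 in progenitor/stem cells, a ratio of 6.62 (5.64 to 7.80) that lay between 6.11 and 19.3 under the other scalings. All 3 genes that passed the minimum were at least 2-fold higher, beside 14.8% of all genes. Bsg, the chaperone of lactate carriers, was at 826 CPM (551 UMIs) against 131 (109 UMIs), and Slc16a1, the lactate carrier MCT1, at 516 (344 UMIs) against 56.3 (47 UMIs), 9.16-fold (6.74 to 12.7). Slc2a4, the insulin-responsive glucose transporter GLUT4, had 56 UMIs in erythroblasts, 1 in granulocytes and T lymphocytes each, and 0 in progenitor/stem cells and B lymphocytes. With the 0 of the progenitor/stem cells set to 3 UMIs, its erythroblast level was 23.4-fold theirs, which leaves out the counting error of the 56. In the granulocytes the lactate exporter Slc16a3 (MCT4) had 70 UMIs (173 CPM), a ratio of 29.0 (11.8 to 92.0) to the 5 UMIs of the progenitor/stem cells, and 0 UMIs in erythroblasts and T lymphocytes. Slc2a3 had no row in the table used here.

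Regulators of glycolysis were highest in progenitor/stem cells as a sum, at 618 CPM (566 to 674), and lowest in erythroblasts, at 162 (133 to 196). The place of the granulocytes, at 0.698 of the progenitor/stem cells, turned with TMM factors, to 1.19. Myc, a transcription factor that acts on many glycolytic genes, had 193 UMIs in progenitor/stem cells (231 CPM) and 6 in granulocytes (14.9 CPM), a ratio of 0.0643 (0.0233 to 0.143). Hif1a, the oxygen-regulated factor, was at 69.5 CPM (58 UMIs) and 69.4 CPM (28 UMIs) in these populations, 145 in T lymphocytes (29 UMIs), 58.9 in B lymphocytes (8 UMIs) and 10.5 in erythroblasts (7 UMIs). Pdk1, a kinase that shuts pyruvate out of the citrate cycle, had 67 UMIs in progenitor/stem cells (80.3 CPM) and 2 in granulocytes. Pdk3 had 49 UMIs in progenitor/stem cells, 9 in granulocytes and 32 in erythroblasts. In the granulocytes 3 of 5 genes that passed were at least 2-fold lower than in progenitor/stem cells (Myc, Pdk1 and Pdk3) and 1 higher, beside 42.7% and 13.7% of all genes. With TMM factors Pdk3 was no longer past 2-fold. The higher gene was Pfkfb4, which makes the activator of phosphofructokinase, with 71 UMIs (176 CPM) against 12 (14.4 CPM), and it is given with values because these had been seen. In the erythroblasts 3 of 4 were lower (Hif1a, Myc and Pdk1), beside 40.9% of all genes.

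The pentose phosphate pathway, which branches off after hexokinase and supplies NADPH, stood highest in granulocytes. Its 6 genes with a row, of 7, summed to 2952 CPM there, 3.90-fold (3.54 to 4.31) above the 756 CPM of the progenitor/stem cells, and were at 768 CPM in erythroblasts, 549 in T lymphocytes and 479 in B lymphocytes. In the granulocytes 4 of 6 genes were at least 2-fold higher, beside 13.7% of all genes. They were Pgd at 14.6-fold (10.4 to 21.0), G6pdx at 6.03-fold (4.46 to 8.25), Taldo1 at 4.51-fold (3.73 to 5.46) and Tkt at 2.44-fold (2.08 to 2.87). The interval of Pgd, an oxidative NADPH-forming step as is G6pdx, lay above those of the other 3. All 4 stayed above the progenitor/stem cells per ERCC UMI, at 1.26-fold for Tkt to 7.52-fold for Pgd. In the erythroblasts 0 of 5 were past 2-fold in either direction, beside 14.8% of all genes higher and 40.9% lower. With TMM factors 2 were higher, beside 27.2% of all genes. The ratio of the sums to the progenitor/stem cells was 1.02 (0.902 to 1.14), or 1.85 with TMM factors.

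The entry of pyruvate into the citrate cycle, in mitochondria, was lower in granulocytes on the CPM scale, a direction that scran size factors in wells of at least 1000 UMIs turned. The sum of its 22 genes was 1118 CPM there and 2000 in progenitor/stem cells, a ratio of 0.559 (0.502 to 0.620). That ratio became 0.953 with TMM factors and 1.02 with scran size factors. It stayed lower at 0.288 per ERCC UMI, and at 0.656 with Gm42418, haemoglobin, S100a8 and S100a9 left out of the denominator. The sum was 1458 CPM in erythroblasts, 1473 in B lymphocytes and 1771 in T lymphocytes. The erythroblasts went from 0.729 of the progenitor/stem cells to 1.33 with TMM factors and 0.673 per ERCC UMI. In the granulocytes 11 of 18 genes that passed were at least 2-fold lower and 0 higher, beside 42.7% and 13.7% of all genes. With TMM factors 2 were lower (Pdha1 and Dlat) and 4 higher (Mpc1, Dlst, Sdhd and Mdh2), beside 23.6% and 24.6% of all genes. Of the 4 genes with the most UMIs, Idh3b (0.312, 0.194 to 0.482), Sdha (0.435, 0.281 to 0.653) and Ogdh (0.439, 0.270 to 0.687) were lower on the CPM scale, and Mdh2 was at 1.29 (0.979 to 1.70). With TMM factors the first 3 were at 0.533, 0.742 and 0.750. In the erythroblasts 3 of 18 were lower (Pdha1, Dlat and Suclg1) and 1 higher (Dlst), beside 40.9% and 14.8% of all genes. With TMM factors 2 were lower and 2 higher there, beside 23.6% and 27.2% of all genes.

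Glycogen and gluconeogenesis genes, 9 of 11 with a row, summed to 1420 CPM in granulocytes and 516 in progenitor/stem cells, a ratio of 2.75 (2.42 to 3.12) that lay between 1.42 and 5.94 under the other scalings. Pygl, the liver-type phosphorylase that frees glucose 1-phosphate from glycogen, was at 1028 CPM in granulocytes (415 UMIs) and 110 in progenitor/stem cells (92 UMIs), 9.33-fold (7.43 to 11.8). Ugp2, which makes the glucose donor for glycogen, was 2.78-fold (1.76 to 4.43) higher in granulocytes. Pck2, the mitochondrial PEP carboxykinase, was at 0.199 (0.0927 to 0.381) in granulocytes and 1.64 (1.26 to 2.13) in erythroblasts. Gbe1, the branching enzyme, had 49 UMIs in progenitor/stem cells, 36 in granulocytes and 1 in erythroblasts.

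**Figure D4:**
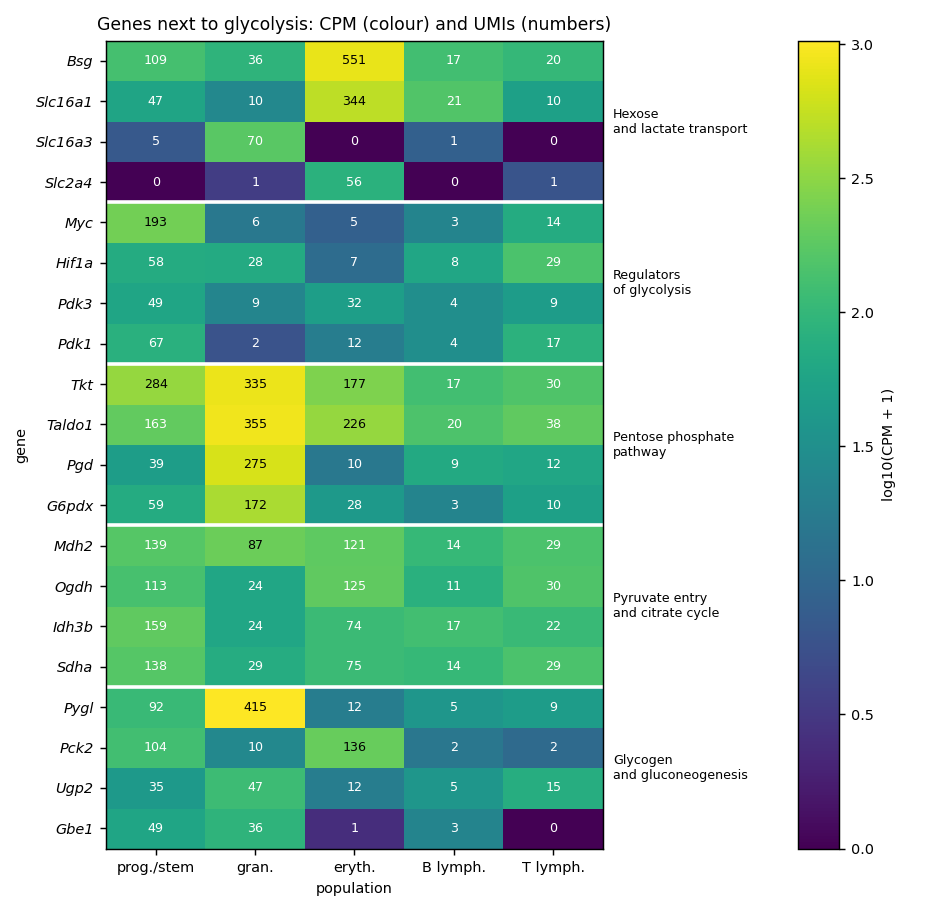
log10(CPM + 1) (colour scale) and UMIs (numbers) of the 4 genes with the most UMIs in each of 5 lists of genes next to glycolysis (rows, list names at the right) in the 5 populations (columns, abbreviated as prog./stem, gran., eryth., B lymph. and T lymph.). Bsg, Slc16a1 and Slc2a4 are highest in erythroblasts, and Slc16a3, the 4 pentose phosphate genes and Pygl in granulocytes.

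Well by well, Pkm was seen in most cells of the populations where it was high. At the full depth 95.8% (89.7 to 98.9) of granulocyte wells, 93.0% (80.9 to 98.5) of T lymphocyte wells and 92.6% (85.4 to 97.0) of progenitor/stem cell wells had a UMI, 47.7% (32.5 to 63.3) of the B lymphocyte wells and 25.0% (16.7 to 34.9) of the erythroblast wells. Wells differ in depth, so each was also thinned to 1000 UMIs, which left out 5 wells: 2 of granulocytes and 1 each of erythroblasts, B and T lymphocytes. At that depth the shares with a Pkm UMI were 69.1% (58.8 to 78.3) for the granulocytes, 45.2% (29.8 to 61.3) for the T lymphocytes, 29.5% (20.6 to 39.7) for the progenitor/stem cells, 16.3% (6.80 to 30.7) for the B lymphocytes and 3.16% (0.656 to 8.95) for the erythroblasts. The order was that of the Pkm CPM. No population is known to lack Pkm, so no share of wells could be set as its background. Hk2 was seen in 25 of 96 granulocyte wells and in 0 of 96 erythroblast wells, which allows a UMI in up to 3.13% of wells at this depth and sets no limit on the wells that express it.

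A well of the granulocytes held a median of 7 UMIs of the 9 genes (0 to 31), one of the progenitor/stem cells 7 (1 to 42), one of the T lymphocytes 4 (0 to 10), one of the B lymphocytes 1 (0 to 4) and one of the erythroblasts 0 (0 to 6). Thinned to 1000 UMIs, the mean was 1.66 UMIs in granulocytes (0 to 7), 0.881 in T lymphocytes (0 to 3), 0.863 in progenitor/stem cells (0 to 3), 0.349 in B lymphocytes (0 to 3) and 0.116 in erythroblasts (0 to 1). The ratio of variance to mean, which is 1 for pure counting, was then between 0.894 and 1.49. Thinning to so few UMIs brings this ratio near 1 by itself, so nothing is read from it about how evenly the wells expressed these genes. At full depth the ratios were 3.43 in granulocytes and 5.19 in progenitor/stem cells, where depth differs between wells.

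**Figure D5:**
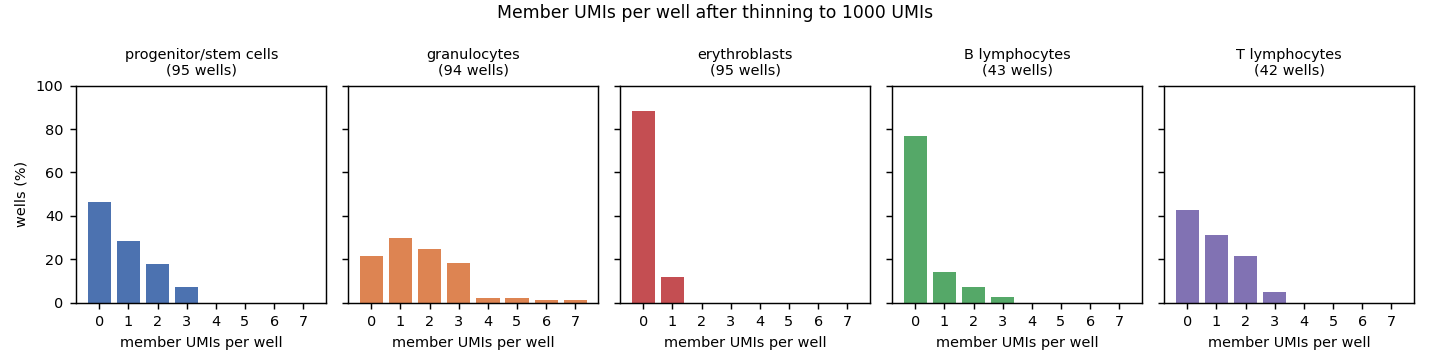
Percent of wells (vertical axis, linear from 0) by the number of UMIs of the 9 measured glycolytic genes (horizontal axis) after thinning each well to 1000 UMIs, in wells with at least 1000 UMIs. The granulocytes reach 7 UMIs in a well, the progenitor/stem cells, B and T lymphocytes 3, and 84 of 95 erythroblast wells are at 0.

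Forward scatter, an optical measure that rises with cell size, was recorded for each cell during the sort. Wells of each population with at least 1000 UMIs were divided at the median of its scatter area. In the granulocytes the 46 wells above it had 1550 CPM of the 9 genes and the 48 others 2088 CPM, a ratio of 0.743 (0.640 to 0.862). In the progenitor/stem cells the ratio was 1.13 (0.992 to 1.30), in T lymphocytes 1.16 (0.864 to 1.55), in B lymphocytes 1.16 (0.648 to 2.10) and in erythroblasts 1.33 (0.804 to 2.24), and each of these intervals held 1. The wells of a population share 1 mouse and 1 plate, scatter rose with the UMIs of a well in each population (rank correlations from 0.303 to 0.461), and the part of depth in the granulocyte ratio was not tested.

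The genes whose pattern over the 5 populations lay nearest to the glycolytic sum were taken from 1811 genes with at least 200 UMIs and 3 UMIs in each population, by the root mean square difference of log2 CPM around its mean. Rsu1 came nearest (0.25), followed by Clip1 (0.26), Man2b1 (0.27), Eno1b (0.32) and Nckap1l (0.33). Eno1b, the near copy of enolase, is the gene of the pathway among them. Rsu1 had 178 CPM in granulocytes, 113 in progenitor/stem cells, 94.8 in T lymphocytes, 51.5 in B lymphocytes and 16.5 in erythroblasts. A minimum of 500 UMIs leaves 551 genes and none of these 5, so the names depend on the minimum. The 5 points of a pattern share the denominators of the populations, and likeness over 5 points is a description only.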

How the data were processed

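UMI counts, as deposited by the authors, are whole numbers without normalization. They came from scPipe, which by its description aligns reads (Rsubread by default), assigns them to exons, demultiplexes designed barcodes and collapses UMIs. Aligner version, genome build, annotation and strand use are not stated for this mouse plate in any source at hand, and the labels contradict each other on where the UMI and barcode lie. Well names tied columns to samples, and 9 columns that matched none were not used. Symbols, positions and transcripts came from GENCODE M21.

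CPM is the sum of a gene over the wells of a population per 1000000 UMIs on mouse genes. Intervals are 95% exact Poisson (levels), exact binomial (shares) and exact conditional binomial (ratios). Those of ratios were checked on simulated Poisson counts, which is the error they assume. The simulation held no variation between wells or animals, so it does not show how the intervals cover such variation. Genes with at least 50 UMIs in a pair of populations entered the 2-fold background, with sums under 3 UMIs set to 3. R 4.3.3 with scran 1.30.0 and edgeR 4.0.16 (TMM factors only) served alternative scalings, and Python 3.11.15 the rest. No doublet caller was run on these single-cell sorts.

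The 10 genes, the lists and the comparisons were chosen with earlier results of these data known. Named were the 10 genes, at most the 4 genes of each other list with the most UMIs (with values), all isozymes and the 5 nearest patterns.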

Additional observations from a re-analysis of the deposited data

How the results depend on the processing

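No paired analysis was possible because each population is 1 sample of 1 mouse. In log2 ratios of the summed genes, the erythroblasts against the progenitor/stem cells moved from -3.26 to -2.40 with TMM factors, -1.53 with scran size factors, -2.90 with wells thinned to 1000 UMIs and -2.53 with pseudogenes added. The thinned value is from a random draw with 84 of 95 erythroblast wells at 0, and no interval was set on it. The granulocytes against the progenitor/stem cells moved from 0.77 to 1.54 with TMM factors, 2.21 with scran size factors, 1.00 with Gm42418, haemoglobin, S100a8 and S100a9 left out of the denominator, 0.94 thinned, 0.51 with pseudogenes and 0.11 without Pkm, and reversed to -0.18 when scaled to ERCC. Scaled to ERCC, the B lymphocytes were at -2.78 in place of -1.45 and the T lymphocytes at -1.01 in place of -0.12 against the progenitor/stem cells. The T lymphocytes were at 0.12 with scran size factors and at -0.65 without Pkm. A granulocyte well with 69 UMIs had a scran size factor near 0 and 1 UMI of the 9 genes. The erythroblast well C5, with 466 UMIs, had 3 UMIs of the 9 genes. With scran size factors in wells of at least 1000 UMIs only, an alternative chosen after seeing the data, the 4 ratios to the progenitor/stem cells were -1.96 (erythroblasts), 1.88 (granulocytes), -1.04 (B lymphocytes) and 0.16 (T lymphocytes). The T over B lymphocyte ratio stayed within its counting interval under each alternative. The median log2 ratio of all genes moved by 0.86 (erythroblasts) and 0.77 (granulocytes) with TMM factors.

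Without the minimum of 50 UMIs, 9 genes were at least 2-fold lower in erythroblasts, 2 higher in granulocytes, 4 lower in T lymphocytes and 1 higher in B lymphocytes than in progenitor/stem cells. The last is Tpi1, with 0 UMIs in B lymphocytes set to 3. With a minimum of 200 UMIs, 2 genes were lower in erythroblasts, 2 in B lymphocytes, 0 in granulocytes and 0 in T lymphocytes, and 0 were higher in T lymphocytes than in B lymphocytes, since fewer genes were tested. At 1.5-fold, 2 genes were higher in granulocytes. The shares of all genes at these other minimums and at 1.5-fold were not computed, so these counts have no background. With a minimum of 500 UMIs, 0 of the 5 nearest patterns were shared. All 5 had fewer UMIs and were left out before the ranking, so this does not show how stable the ranking is. For single genes, the settings that only left out wells kept 18 of 18 values each within the counting interval. Leaving out well A8 cannot move a ratio without B lymphocytes. TMM factors kept 12 of 18, scran size factors 10 of 18, scaling to ERCC 9 of 18 and thinning 11 of 17. Over all settings, 140 of 179 values stayed within the counting interval and 36 moved outside it. The other 3 reversed a direction that had been beyond counting error. They were Gpi1 in granulocytes over progenitor/stem cells, which went from 0.81 to -0.14 when scaled to ERCC and -0.18 when thinned, and Pkm in T lymphocytes over progenitor/stem cells, from 0.39 to -0.50 when scaled to ERCC. The thinned Gpi1 value is from a random draw with a Gpi1 UMI in 7 of 94 granulocyte and 8 of 95 progenitor/stem cell wells. No interval was set on it, so it cannot show a reversal. In a further 12 the direction turned where the interval had held a ratio of 1. The scalings of the other lists, and the counts past 2-fold and the order of the populations under them, were chosen after seeing the data. Genes with few UMIs, such as Tpi1 (8) and Gapdh (22), could not be ordered between populations at this depth.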
